A study of Mus musculus with 8 samples.

Results

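The genes described here are 43 genes of DNA replication and S phase, chosen by symbol from a table of RNA-seq counts. All 43 were found among the 53921 named genes of that table, and all 43 had enough counts to be tested. The libraries come from mouse induced cardiomyocytes, which are fibroblasts turned towards heart muscle, here by the factor mix labelled MGT (in this field Mef2c, Gata4 and Tbx5). All cells received MGT and stand at day 5. The 2 control libraries also received the hairpin labelled shNT, and the other 2 received shGrhl3, a hairpin against the transcription factor gene Grhl3, both given as lentivirus. The labels add the word Neo to the cell type and do not say how many hairpin sequences were used. Nothing says that replicates were separate cultures, and the p-values therefore cover the spread among 4 libraries, part or all of which may be technical. The 4 libraries held 16102839 to 19822541 counts in named genes. The H3K27ac CUT&Tag samples of the same groups were not analysed here.

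DNA replication begins at origins that are licensed in G1, when the origin recognition complex, Cdc6 and Cdt1 load the ring-shaped MCM helicase onto DNA. In S phase, Cdc45 and the GINS complex join the ring to form the active helicase, polymerases copy the strands behind it, and a sliding clamp keeps them on the template. The E2F transcription factors and cyclin E drive the entry into S phase and the transcription of many of these genes. Most cells of the adult heart have left the cycle, whereas fibroblasts in culture divide, and the mRNAs of these genes are widely used as marks of cycling cells. In bulk RNA, a change in the share of cells in S phase and a change in RNA per cell cannot be told apart.

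The targeted gene was low in every library. Grhl3 was read 31 and 14 times in shNT and 11 and 19 times in shGrhl3, so the groups overlapped (log2 fold change -0.72, SE 0.53, adjusted p = 0.311). A fall of Grhl3 mRNA was not detectable at this depth, and the directions below are those of the libraries labelled shGrhl3 against those labelled shNT.

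E2F factors bind short words near the starts of many replication genes. RefSeq promoter windows on GRCm38.p6, the assembly behind mm10, matched 35 of the 43 genes. The 250 bases before each annotated start were searched on both strands for the E2F words TTTGGCGC, TTTGCCGC, TTTCCCGC and TTTCGCGC, for CCAAT, the core of the NF-Y box, and for TTTGAA, the core of the cell cycle homology element of mitotic genes. An E2F word was found in 9 of the 35 genes (25.7%), against 2.16% of all 27025 genes with a window. CCAAT was found in 22 (62.9%, against 37.5%) and TTTGAA in 5 (14.3%, against 18.3%). Among the 56 matches, those of different motifs overlapped 0 times. The 9 genes with such a word were Mcm5, Orc1 and Uhrf1, which rose in shGrhl3 cells, and Cdc6, Gins3, Mcm6, Mcm7, Pola1 and Rfc3, which did not pass the test. A word was thus found in 3 of the 20 risen genes with a window (15.0%) and in 6 of the 15 others (40.0%). A match is a description of letters and does not show a bound site.

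The next stretches are printed because their genes differ in how they moved. Mcm5 rose, Mcm6 did not pass the test, and both carry E2F words. Rrm2, with the highest fold change of the 43 genes, carries none of the searched E2F words in its window. Whether the words bear on how the genes moved was not tested. Each is written 5′ to 3′ on the strand of its gene, with E2F words and CCAAT, on either strand, in capitals. The Mcm5 stretch is chr8:75109319-75109467 on the plus strand, the Mcm6 stretch chr1:128359736-128359895 on the minus strand and the Rrm2 stretch chr12:24708064-24708223 on the plus strand. In Mcm5 the capitals TTTCGCGCCAAA hold 2 E2F words that overlap on opposite strands, and in Mcm6 the first run does the same and another word follows nearer the start.
Mcm5: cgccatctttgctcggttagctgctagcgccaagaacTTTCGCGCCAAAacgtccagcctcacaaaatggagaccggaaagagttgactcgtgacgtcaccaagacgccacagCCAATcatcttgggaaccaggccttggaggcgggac
Mcm6: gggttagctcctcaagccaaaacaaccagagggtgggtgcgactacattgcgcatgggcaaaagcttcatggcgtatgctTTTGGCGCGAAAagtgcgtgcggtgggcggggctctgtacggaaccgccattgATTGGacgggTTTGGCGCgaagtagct
Rrm2: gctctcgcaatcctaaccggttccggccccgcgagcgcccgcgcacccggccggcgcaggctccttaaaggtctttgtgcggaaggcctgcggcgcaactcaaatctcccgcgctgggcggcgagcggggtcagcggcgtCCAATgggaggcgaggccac

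Most of the replication genes were higher in shGrhl3 cells. Of the 43, 24 rose, 0 fell and 19 did not pass (edgeR's quasi-likelihood test, Benjamini-Hochberg adjustment over all genes, threshold 0.05), where 17.2% of all 15324 genes tested rose and 18.1% fell. At an unadjusted p under 0.05, 31 were higher and 0 lower. DESeq2 called 19 higher and 0 lower (13.7% of all genes higher), and limma-voom 24 higher and 0 lower (16.8% of all genes higher). The risen genes had fold changes from 1.26 to 2.27. Levels are in CPM, counts scaled to a common library total with TMM factors, and levels of different genes are not compared because transcript length is not accounted for. The median log2 fold change was 0.52 over the 43 genes and -0.01 over all genes tested. In 40 of the 43 both shGrhl3 libraries lay above both shNT libraries, which held for 32.8% of all genes, and in 0 both lay below (33.7% of all genes). The exceptions were Mcm6, Mcm10 and Ccne2, whose groups overlapped. Together the 43 genes took 0.0765% and 0.0772% of all counts in shNT, against 0.111% and 0.108% in shGrhl3. By medians, replicates lay closer together than the groups: the median distance between replicates was 0.16 (log2) in shNT and 0.09 in shGrhl3. This did not hold for every gene. For E2f2 and Fen1, the log2 ratios of shNT replicate 1 to 2 were -1.47 and 0.82, against log2 fold changes of 1.12 and 0.56.

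**Figure D1:**
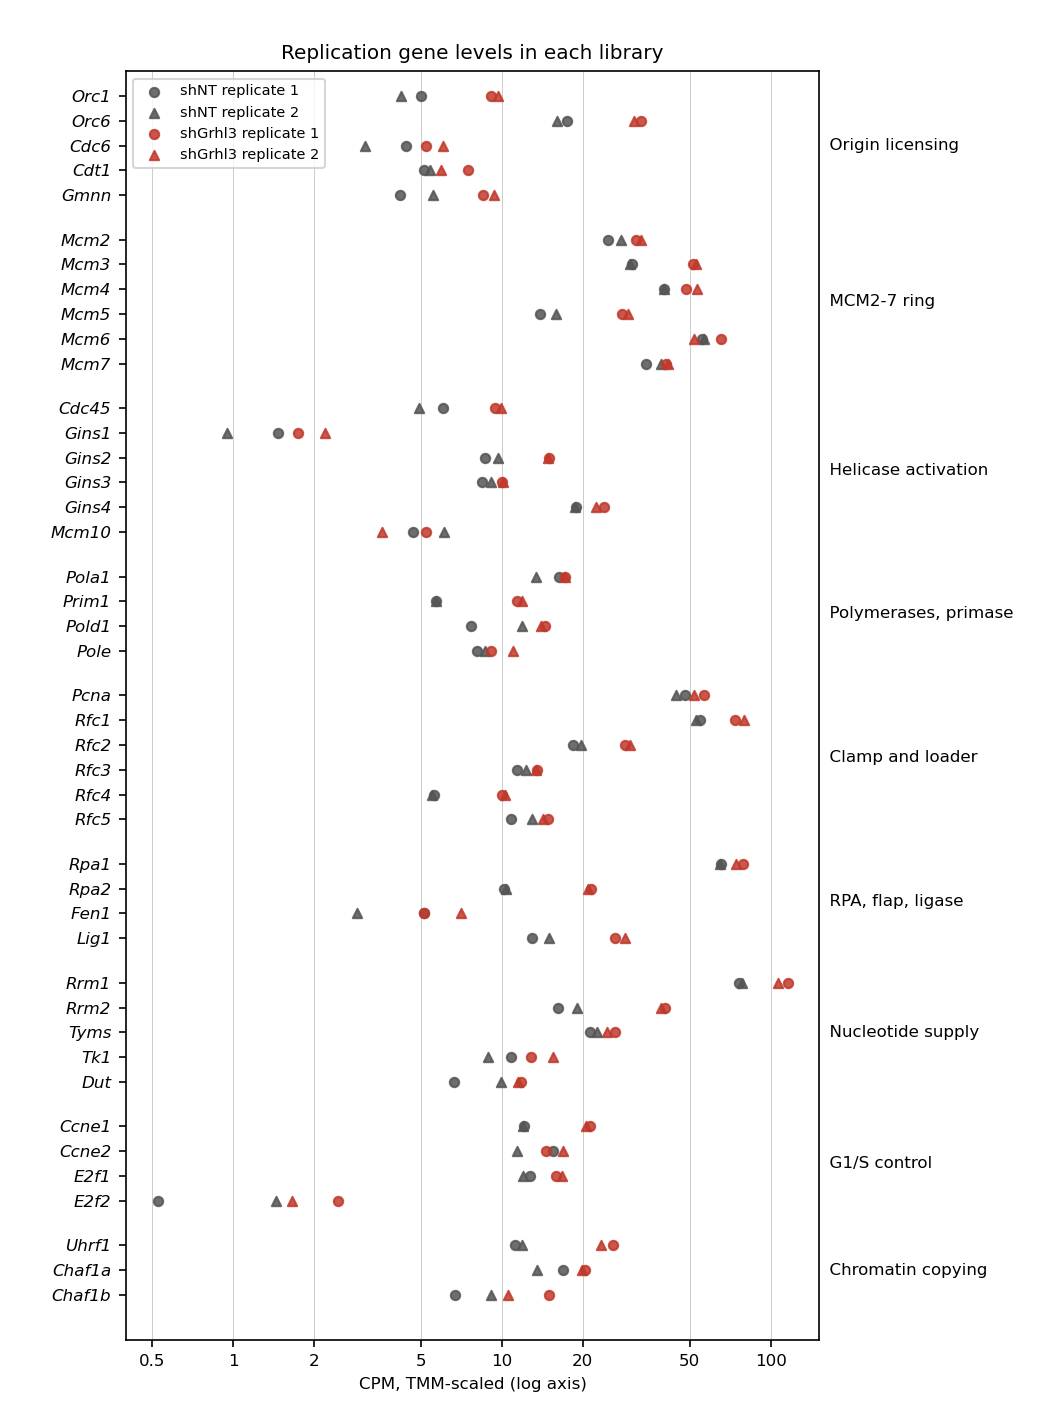
Level of each of the 43 genes in each library, in CPM on a log axis, grouped by role; circles are replicate 1 and triangles replicate 2. In 40 of 43 genes both shGrhl3 points (red) lie to the right of both shNT points (grey).

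Among the genes that license origins, 3 of 5 rose. Gene spans here and below are RefSeq's on GRCm38.p6. Orc6, a small subunit of the origin recognition complex (chromosome 8, 85299632 to 85308279), stood at 17.4 and 16.1 CPM in shNT and 33.02 and 31.05 CPM in shGrhl3 (log2 fold change 0.93, SE 0.13, adjusted p = 3.06e-06). Orc1, the subunit that brings Cdc6 and the ring to origins, stood at 5.02 and 4.22 CPM in shNT and 9.08 and 9.69 CPM in shGrhl3 (log2 fold change 1.01, SE 0.21, adjusted p = 0.000560). Both rose close to 2-fold with clear space between the groups. Gmnn encodes geminin, which binds Cdt1 and blocks a new round of licensing after S phase has begun, and rose as well: 4.18 and 5.54 CPM in shNT and 8.48 and 9.31 CPM in shGrhl3 (log2 fold change 0.88, SE 0.22, adjusted p = 0.00244). Without shNT replicate 1 the Gmnn call was lost (log2 fold change 0.68, adjusted p = 0.0593). Its target Cdt1, the loader of the ring, stood at 5.12 and 5.42 CPM in shNT and 7.48 and 5.94 CPM in shGrhl3 and did not pass (log2 fold change 0.36, SE 0.22, adjusted p = 0.230). Cdc6, the ATPase that works with Cdt1, did not pass either (log2 fold change 0.57, adjusted p = 0.0852). The 95% interval of the log2 fold change was -0.11 to 0.82 for Cdt1 and 0.05 to 1.10 for Cdc6.

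The 6 subunits of the MCM ring occur once each in the helicase, and of their mRNAs 3 rose and 3 did not pass. The difference between subunits was not tested. Mcm5 (chromosome 8, 75109468 to 75128439) stood at 13.9 and 15.9 CPM in shNT and 27.9 and 29.4 CPM in shGrhl3 (log2 fold change 0.95, SE 0.13, adjusted p = 4.88e-06). Mcm3, its neighbour in the ring, stood at 30.5 and 29.97 CPM in shNT and 51.5 and 52.8 CPM in shGrhl3 (log2 fold change 0.79, SE 0.11, adjusted p = 3.27e-06). Mcm4, part of the catalytic core with Mcm6 and Mcm7, had a smaller fold change: 40.1 and 40.2 CPM in shNT and 48.3 and 53.05 CPM in shGrhl3 (log2 fold change 0.33, SE 0.10, adjusted p = 0.0156). The Mcm4 call was lost without shNT replicate 1, shNT replicate 2 or shGrhl3 replicate 2 (adjusted p = 0.0959, 0.0790 and 0.0672). Mcm6 (chromosome 1, 128331575 to 128359705), whose promoter window is printed above beside that of Mcm5, stood at 55.4 and 56.4 CPM in shNT and 65.2 and 51.9 CPM in shGrhl3. Its shGrhl3 libraries lay on either side of the shNT libraries (log2 fold change 0.07, SE 0.11, adjusted p = 0.664, 95% interval -0.16 to 0.30). Leaving out shGrhl3 replicate 1 gave -0.10 for Mcm6, and leaving out replicate 2 gave 0.24. Mcm2 (log2 fold change 0.29, adjusted p = 0.0582) and Mcm7 (0.17, adjusted p = 0.261) did not pass. Mcm2 passed in 4 of the 12 alternatives fitted to all 4 libraries, over which its adjusted p ranged from 0.0383 to 0.138.

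Count ratios inside a library do not depend on how libraries are scaled. The counts of Mcm5 were 0.251 and 0.282 times those of Mcm6 in shNT and 0.427 and 0.567 times in shGrhl3. For Mcm5 over Mcm7 the ratios were 0.406 and 0.406 in shNT and 0.686 and 0.712 in shGrhl3. The counts of Mcm3 were 0.550 and 0.532 times those of Mcm6 in shNT and 0.790 and 1.02 times in shGrhl3. For subunits needed in equal number, the mRNA ratios of the 2 groups did not overlap. The pairs for these and the later ratios were picked after their values were seen, so the ratios are a description, and an exact permutation test of 2 libraries against 2 cannot go below p = 0.333.

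Cofactors that turn the loaded ring into a moving helicase were mixed: 2 of 6 rose and 4 did not pass. Cdc45 (chromosome 16, 18780447 to 18811972), which binds the ring at firing origins, stood at 6.01 and 4.91 CPM in shNT and 9.43 and 9.96 CPM in shGrhl3 (log2 fold change 0.82, SE 0.20, adjusted p = 0.00275). Gins2, a subunit of the 4-part GINS complex, stood at 8.67 and 9.70 CPM in shNT and 14.96 and 14.8 CPM in shGrhl3 (log2 fold change 0.70, SE 0.16, adjusted p = 0.00159). The other GINS subunits did not pass, with log2 fold changes of 0.68 for Gins1, 0.20 for Gins3 and 0.31 for Gins4. Gins1 had 28 and 15 counts in shNT and 35 and 41 counts in shGrhl3, and its 95% interval ran from -0.18 to 1.54. Gins4 passed in 1 of the 12 alternatives with all 4 libraries, over which its adjusted p ranged from 0.0482 to 0.167. Mcm10, a scaffold of the starting replication fork and not a part of the ring, was the only gene of the 43 with a negative log2 fold change. It stood at 4.65 and 6.11 CPM in shNT and 5.24 and 3.59 CPM in shGrhl3, and its groups overlapped (log2 fold change -0.26, SE 0.26, adjusted p = 0.461).

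Of the polymerase and primase genes, 2 of 4 rose. Prim1 encodes the subunit that makes the RNA primers (chromosome 10, 128015215 to 128030030) and stood at 5.70 and 5.67 CPM in shNT and 11.4 and 11.8 CPM in shGrhl3 (log2 fold change 1.03, SE 0.19, adjusted p = 0.000146). Pola1, the catalytic subunit of the polymerase alpha complex in which primase works, stood at 16.3 and 13.4 CPM in shNT and 17.1 and 17.1 CPM in shGrhl3 and did not pass (log2 fold change 0.20, SE 0.15, adjusted p = 0.323). The ratio of Prim1 to Pola1 counts was 0.349 and 0.423 in shNT and 0.668 and 0.691 in shGrhl3. Pold1, the catalytic subunit of the lagging-strand polymerase delta, stood at 7.68 and 11.8 CPM in shNT and 14.4 and 13.97 CPM in shGrhl3 (log2 fold change 0.56, SE 0.18, adjusted p = 0.0200). The shNT libraries differed for Pold1: leaving out shNT replicate 1 gave 0.26 (adjusted p = 0.416), and leaving out shNT replicate 2 gave 0.89. DESeq2 did not call it (adjusted p = 0.0735). Pole, of the leading-strand polymerase epsilon, did not pass (log2 fold change 0.27, adjusted p = 0.268).

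Of the 5 clamp loader subunits 3 rose, and the clamp did not pass. Rfc1, the large subunit of the loader, stood at 54.4 and 52.8 CPM in shNT and 73.5 and 79.9 CPM in shGrhl3 (log2 fold change 0.52, SE 0.10, adjusted p = 0.000207). The small subunit Rfc2 stood at 18.3 and 19.8 CPM in shNT and 28.8 and 29.9 CPM in shGrhl3 (log2 fold change 0.62, SE 0.12, adjusted p = 0.000367), and Rfc4 at 5.59 and 5.48 CPM in shNT and 10.02 and 10.2 CPM in shGrhl3 (log2 fold change 0.87, SE 0.20, adjusted p = 0.00123). The groups were well apart for these 3 genes. Rfc3, another small subunit, stood at 11.3 and 12.3 CPM in shNT and 13.5 and 13.4 CPM in shGrhl3 (log2 fold change 0.19, SE 0.16, adjusted p = 0.386), and Rfc5 did not pass (log2 fold change 0.30, adjusted p = 0.145). Pcna, the clamp itself (chromosome 2, 132249286 to 132253180), stood at 48.1 and 44.4 CPM in shNT and 56.5 and 52.03 CPM in shGrhl3, without overlap but short of the threshold (log2 fold change 0.23, SE 0.10, adjusted p = 0.0884). It passed without shGrhl3 replicate 2 (log2 fold change 0.31, adjusted p = 0.0354). A processed copy, Pcna-ps2, had 290 to 431 counts a library (log2 fold change 0.20). The counting could have split reads between the pair, so the Pcna level is uncertain. The difference in response between the loader subunits and the clamp was not tested.

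Single-strand binding and strand joining each held a gene that rose about 2-fold. Rpa2, the middle subunit of replication protein A, stood at 10.2 and 10.4 CPM in shNT and 21.4 and 20.98 CPM in shGrhl3 (log2 fold change 1.04, SE 0.15, adjusted p = 5.53e-06). Rpa1, the large subunit that holds the DNA, stood at 65.3 and 64.5 CPM in shNT and 78.7 and 74.5 CPM in shGrhl3 and missed the threshold narrowly (log2 fold change 0.24, SE 0.09, adjusted p = 0.0526). Rpa1 passed in 6 of the 12 alternatives with all 4 libraries, over which its adjusted p ranged from 0.0321 to 0.0965. It also passed without shGrhl3 replicate 2 (adjusted p = 0.0253). Lig1, the ligase that seals Okazaki fragments (chromosome 7, 13277175 to 13311426), stood at 12.96 and 14.9 CPM in shNT and 26.3 and 28.7 CPM in shGrhl3 (log2 fold change 0.98, SE 0.14, adjusted p = 4.31e-06). Fen1, the flap nuclease that trims those fragments before ligation, had 98 and 46 counts in shNT and 103 and 131 counts in shGrhl3 and did not pass (log2 fold change 0.56, adjusted p = 0.109). The Fen1 value ranged from 0.24 without shNT replicate 2 to 1.06 without shNT replicate 1, and it passed in the latter case and without shGrhl3 replicate 1 (adjusted p = 0.0160 and 0.0289).

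Genes that supply deoxynucleotides were raised in 4 of 5 cases. Rrm2, the S-phase subunit of ribonucleotide reductase, had both the highest fold change and the lowest p of the 43 genes. It stood at 16.2 and 18.95 CPM in shNT and 40.4 and 39.2 CPM in shGrhl3 (log2 fold change 1.18, SE 0.12, adjusted p = 7.55e-08). Rrm1, the large subunit of the same enzyme, is present through the cycle and had a smaller fold change: 76.4 and 78.1 CPM in shNT and 116 and 106 CPM in shGrhl3 (log2 fold change 0.52, SE 0.09, adjusted p = 9.11e-05). The ratio of Rrm2 to Rrm1 counts was 0.212 and 0.243 in shNT and 0.350 and 0.369 in shGrhl3. Tk1, the cytosolic thymidine kinase of S phase, stood at 10.8 and 8.88 CPM in shNT and 12.9 and 15.5 CPM in shGrhl3 (log2 fold change 0.52, SE 0.17, adjusted p = 0.0208). Its call was lost without shNT replicate 2 (adjusted p = 0.171), without shGrhl3 replicate 2 (0.141) and with DESeq2 (0.0647). Dut, which clears dUTP, passed narrowly (log2 fold change 0.52, adjusted p = 0.0386). Dut lost its call without shNT replicate 1 (log2 fold change 0.24), without shGrhl3 replicate 1 (adjusted p = 0.0797) and with DESeq2 (0.125). With shNT replicate 2 left out instead, the Dut value rose to 0.81. Tyms, which makes thymidylate, stood at 21.3 and 22.6 CPM in shNT and 26.4 and 24.5 CPM in shGrhl3 and did not pass (log2 fold change 0.22, SE 0.12, adjusted p = 0.189).

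**Figure D2:**
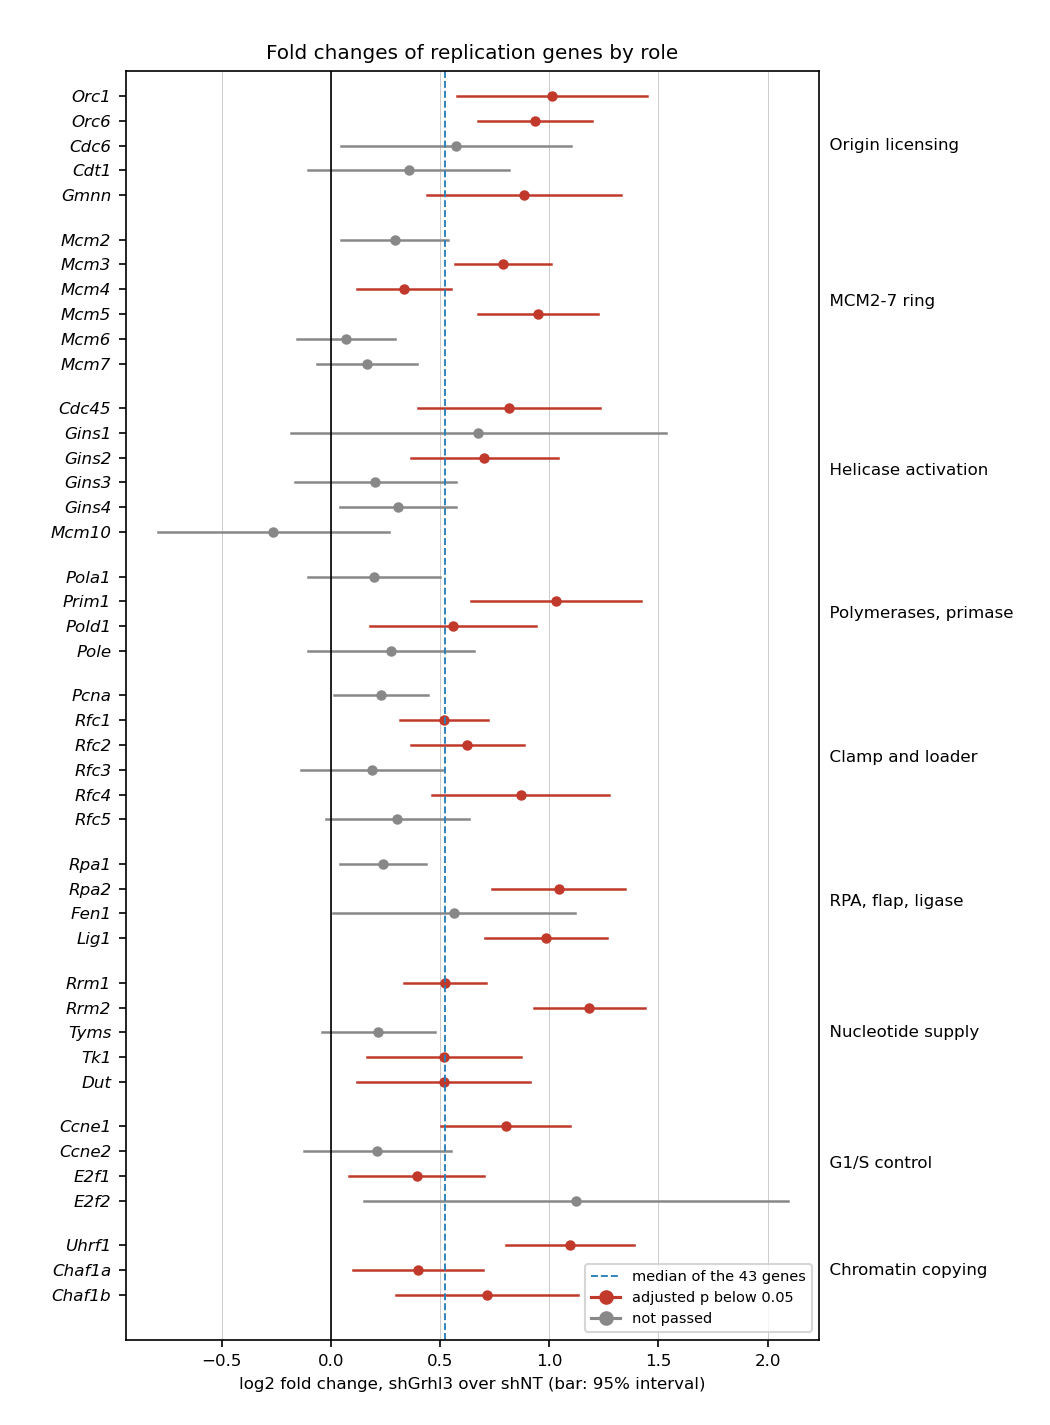
Log2 fold change of each gene, shGrhl3 over shNT, with its 95% interval from edgeR's quasi-likelihood fit, by role; red marks an adjusted p below 0.05. Points lie to the right of 0 except that of Mcm10, and the dashed line is the median of 0.52.

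Of the genes that control the passage from G1 into S, 2 of 4 rose. Ccne1, which encodes cyclin E1, the activator of Cdk2 at S-phase entry (chromosome 7, 38097984 to 38107490), stood at 12.1 and 11.96 CPM in shNT and 21.2 and 20.6 CPM in shGrhl3 (log2 fold change 0.80, SE 0.14, adjusted p = 0.000108). Ccne2, which encodes the related cyclin E2, stood at 15.5 and 11.3 CPM in shNT and 14.6 and 16.8 CPM in shGrhl3, with overlapping groups (log2 fold change 0.21, SE 0.16, adjusted p = 0.337). E2f1, the activator that drives many of the genes above, stood at 12.7 and 12.03 CPM in shNT and 15.9 and 16.7 CPM in shGrhl3 (log2 fold change 0.39, SE 0.15, adjusted p = 0.0436). The E2f1 call was lost without each of the 4 libraries in turn (adjusted p = 0.0733 to 0.190), with DESeq2 (0.122), with no expression filter (0.0600) and with the replicate number as a block (0.0615). E2f2, another activator, had 10 and 23 counts in shNT and 49 and 31 counts in shGrhl3. It did not pass (log2 fold change 1.12, SE 0.47, adjusted p = 0.0664), although it did without shNT replicate 2 (log2 fold change 1.97, adjusted p = 0.0158) and without shGrhl3 replicate 2 (1.38, adjusted p = 0.0249). Leaving out shNT replicate 1 gave 0.51.

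All 3 genes that copy chromatin onto the new strands rose. Uhrf1, which reads hemimethylated DNA behind the fork and brings in the maintenance methyltransferase (chromosome 17, 56303337 to 56323486), stood at 11.2 and 11.9 CPM in shNT and 25.9 and 23.3 CPM in shGrhl3 (log2 fold change 1.10, SE 0.14, adjusted p = 1.73e-06). Chaf1a and Chaf1b encode the large and the middle subunit of chromatin assembly factor 1, which places histones on new DNA. Chaf1b stood at 6.69 and 9.07 CPM in shNT and 15.01 and 10.5 CPM in shGrhl3 (log2 fold change 0.71, SE 0.20, adjusted p = 0.00796), with its shGrhl3 libraries further apart than most. Its call was lost without shNT replicate 1 (log2 fold change 0.49, adjusted p = 0.109) and without shGrhl3 replicate 1 (0.43, adjusted p = 0.156). Chaf1a stood at 16.9 and 13.5 CPM in shNT and 20.4 and 19.9 CPM in shGrhl3 (log2 fold change 0.40, SE 0.14, adjusted p = 0.0340). The Chaf1a call was lost without shNT replicate 2 (log2 fold change 0.26, adjusted p = 0.322), without shGrhl3 replicate 1 (adjusted p = 0.0906) and with DESeq2 (0.0963).

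Within several complexes and pathways, a risen gene can be set against a partner that did not pass in the same library. The ratio of Rpa2 to Rpa1 counts was 0.156 and 0.161 in shNT and 0.272 and 0.282 in shGrhl3. The ratio of Rfc4 to Rfc3, both small loader subunits, was 0.493 and 0.444 in shNT and 0.742 and 0.764 in shGrhl3. Inside GINS, Gins2 over Gins3 gave 1.03 and 1.07 in shNT and 1.49 and 1.47 in shGrhl3. In these 3 pairs replicates lay close together and the groups far apart. The inhibitor to loader ratio, Gmnn over Cdt1, was 0.816 and 1.02 in shNT and 1.13 and 1.57 in shGrhl3. The ratio of Ccne1 to Ccne2 was 0.778 and 1.06 in shNT and 1.45 and 1.23 in shGrhl3. For these last pairs the groups did not overlap but lay close, with replicates further apart. Lig1 over Pcna, the clamp that the ligase binds, was 0.269 and 0.336 in shNT and 0.465 and 0.552 in shGrhl3.

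Gene position bears on a few of these values, since it is not known whether the counting used strand. The spans of 12 of the 43 genes overlap another protein-coding gene, so reads of the shared stretch cannot be assigned with certainty. For the risen genes, the overlapping neighbour was called higher in 3 pairs and was not called higher in 5. Orc1, Cdc45 and Tk1 overlap Prpf38a, Ufd1 and Afmid, which were called higher (log2 fold changes 0.27, 0.25 and 0.87). Rfc4 overlaps Eif4a2 over 185 bases, and Eif4a2 fell (log2 fold change -0.30). Without shNT replicate 1, none of these 4 neighbours was called, and the calls of Prpf38a, Ufd1 and Afmid were also lost with DESeq2. Gse1, Zswim9 and Ubxn6, which overlap the risen Gins2, Lig1 and Chaf1a, did not pass (log2 fold changes 0.40, -0.05 and -0.07). Necab3, which overlaps the risen E2f1, was not tested. Ccne2, which did not pass, overlaps Ints8 over 5622 bases, and Ints8 fell (log2 fold change -0.29). The Ints8 call was lost with DESeq2 and without each of the 4 libraries in turn.

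Other genes lie within 500 bases of 5 replication genes without overlap, and 2 such neighbours fell. They were picked after their values were seen. The span of Vps35, a retromer gene, lies 114 bases before the start of Orc6, which is read away from it. Vps35 stood at 338 and 324 CPM in shNT and 115 and 112 CPM in shGrhl3 (log2 fold change -1.55, SE 0.08, adjusted p = 2.70e-12), while Orc6 rose. Cds2, of phospholipid synthesis, starts 157 bases from the start of Pcna on the opposite strand. Cds2 fell: 170 and 161 CPM in shNT and 74.4 and 77.99 CPM in shGrhl3 (log2 fold change -1.12, SE 0.09, adjusted p = 1.03e-09). Next to Mcm4, at 43 bases, Prkdc did not pass (log2 fold change -0.14, adjusted p = 0.497). The other neighbours that were tested did not pass either: Pxmp2 beside Pole (log2 fold change 0.98, adjusted p = 0.103) and Tmem230 on the other side of Pcna (0.29, adjusted p = 0.0586), both with positive values like those of Pole and Pcna. Pxmp2 was called higher without shGrhl3 replicate 2 (adjusted p = 0.0482), and Tmem230 in 3 of the 12 alternatives with all 4 libraries. The stretches beside Orc6 and Pcna are printed because the neighbours across them fell, while Orc6 rose and Pcna did not pass. That beside Orc6 is chr8:85299518-85299631, plus strand, and that beside Pcna is chr2:132253181-132253337, written on the minus strand, the strand of Pcna. Capitals mark ATTGG, which is CCAAT on the other strand, and neither stretch holds an E2F word.
Orc6: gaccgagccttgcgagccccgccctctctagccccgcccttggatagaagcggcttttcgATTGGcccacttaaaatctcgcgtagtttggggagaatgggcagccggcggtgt
Pcna: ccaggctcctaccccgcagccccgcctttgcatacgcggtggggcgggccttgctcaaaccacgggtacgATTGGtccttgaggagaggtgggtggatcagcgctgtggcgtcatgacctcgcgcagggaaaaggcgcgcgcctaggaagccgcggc

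Other genes of the replication pathway were called higher in 26.3% of cases and lower in 5.26%, against 17.2% and 18.1% of all genes. Of 96 genes listed beside the 43, 95 were tested and Lin54 was not analysed here: 25 rose, 5 fell and 65 did not pass, with a median log2 fold change of 0.15 (all genes -0.01). DESeq2 called 20 of the 95 higher and 4 lower (13.7% of all genes higher). Among 29 further replisome genes 7 rose and the other 22 did not pass. Mcm8, a helicase of recombination related to the ring subunits, stood at 3.61 and 2.64 CPM in shNT and 8.38 and 8.99 CPM in shGrhl3 (log2 fold change 1.45, SE 0.24, adjusted p = 3.64e-05). Wdhd1, which ties polymerase alpha to the helicase, stood at 6.85 and 4.22 CPM in shNT and 10.97 and 15.5 CPM in shGrhl3. Clspn, the checkpoint mediator claspin, and Pole4, a small subunit of polymerase epsilon, rose by 0.84 and 0.42 on the log2 scale, the latter not without shNT replicate 1 or shGrhl3 replicate 1. These 29 genes had a median log2 fold change of 0.14.

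Among 15 genes that control origin firing, 6 rose and 1 fell. Ccna2, the S-phase and mitotic cyclin A2, stood at 16.7 and 19.3 CPM in shNT and 38.8 and 38.9 CPM in shGrhl3 (log2 fold change 1.11, SE 0.12, adjusted p = 1.76e-07). Dbf4, the activating subunit of the Cdc7 kinase, stood at 19.7 and 20.8 CPM in shNT and 32.7 and 32.9 CPM in shGrhl3, and Cdk1, the kinase of mitotic entry, at 31.8 and 31.8 CPM in shNT and 46.98 and 45.4 CPM in shGrhl3. The falling gene was Wee1, which encodes an inhibitory kinase of Cdk1: 18.8 and 20.2 CPM in shNT and 12.6 and 13.7 CPM in shGrhl3 (log2 fold change -0.57, SE 0.14, adjusted p = 0.00331). Of 12 genes of licensing turnover and ubiquitin ligases, 4 rose and the other 8 did not pass. The risen genes were Fbxw7, which marks cyclin E for destruction (log2 fold change 0.55), Cks2 (0.63), Dtl, which directs the destruction of Cdt1 in S phase (0.90), and Fbxo5 (0.57), an inhibitor of the anaphase-promoting complex. The Fbxo5 call was lost with DESeq2 (adjusted p = 0.105) and without each library other than shGrhl3 replicate 2.

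In the E2F, Rb and DREAM list, 5 of 16 genes rose and 2 fell (31.2% and 12.5%, against 17.2% and 18.1% of all genes). The median log2 fold change of the list was 0.07, with 8 genes positive and 8 negative. E2f7 and E2f8, atypical E2Fs that repress S-phase genes, rose by 0.79 and 0.92 on the log2 scale, E2f8 not without shGrhl3 replicate 2 (adjusted p = 0.182). Rbl1, which encodes the pocket protein p107, stood at 12.6 and 14.2 CPM in shNT and 19.9 and 21.5 CPM in shGrhl3, and Tfdp1, the dimer partner of the E2Fs, at 93.4 and 97.04 CPM in shNT and 123 and 119 CPM in shGrhl3. Foxm1, the activator of mitotic genes, stood at 16.7 and 15.1 CPM in shNT and 25.5 and 26.98 CPM in shGrhl3 (log2 fold change 0.72, SE 0.13, adjusted p = 0.000145). E2f5, a repressive E2F of resting cells, fell: 12.96 and 15.6 CPM in shNT and 5.64 and 6.16 CPM in shGrhl3 (log2 fold change -1.27, SE 0.18, adjusted p = 8.27e-06). Lin37, a DREAM subunit, fell by 0.48 on the log2 scale, but not with DESeq2 (adjusted p = 0.0652), nor without shNT replicate 2 or shGrhl3 replicate 1. The Tfdp1 call was lost without shNT replicate 1 (adjusted p = 0.0707).

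Further genes of nucleotide supply and of chromatin copying were mostly not called. Among the further nucleotide genes, Nme1, a nucleoside diphosphate kinase, rose (log2 fold change 0.62), and Samhd1, which breaks down dNTPs, fell: 103 and 97.2 CPM in shNT and 73.96 and 67.1 CPM in shGrhl3 (log2 fold change -0.50, SE 0.09, adjusted p = 0.000179). Of 10 chromatin genes, Hells, a remodeller that works with DNA methylation, rose (log2 fold change 0.67, SE 0.14, adjusted p = 0.000412). Asf1a, a histone chaperone, fell (log2 fold change -0.40, SE 0.11, adjusted p = 0.00430), though not without shNT replicate 1.

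Mitotic genes were also higher, beside the replication genes. Of 30 genes, 26 rose and 0 fell by edgeR's test (0 lower at an unadjusted p under 0.05), where 17.2% of all genes rose, with a median log2 fold change of 0.77. DESeq2 called 23 higher and 0 lower, and limma-voom 26 higher and 0 lower. Bub1, a spindle checkpoint kinase, stood at 6.37 and 7.56 CPM in shNT and 21.99 and 23.4 CPM in shGrhl3 (log2 fold change 1.71, SE 0.16, adjusted p = 1.50e-08). Cdc20, Kif20a and Prc1, of anaphase and cell separation, had log2 fold changes of 1.34, 1.11 and 1.08. The summed level of the 30 genes was 557 and 562 CPM in shNT and 912 and 947 CPM in shGrhl3, and that of the 43 replication genes 770.0 and 783 CPM in shNT and 1097 and 1078 CPM in shGrhl3. In the 26 mitotic genes with a promoter window, 0 E2F words were found, and CCAAT was found in 20 (76.9%) and TTTGAA in 8 (30.8%).

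Of 12 genes of D-type cyclins, their kinases and CDK inhibitors, 2 rose (16.7%, near the 17.2% of all genes) and 5 fell (41.7%, against 18.1%). Ccnd2, the most reduced, stood at 472 and 433 CPM in shNT and 235 and 255 CPM in shGrhl3 (log2 fold change -0.88, SE 0.08, adjusted p = 1.72e-08), and Ccnd1 at 105 and 99.7 CPM in shNT and 67.3 and 72.3 CPM in shGrhl3 (log2 fold change -0.55, SE 0.09, adjusted p = 5.48e-05). Ccnd3 rose: 89.5 and 96.03 CPM in shNT and 166 and 158 CPM in shGrhl3 (log2 fold change 0.81, SE 0.09, adjusted p = 1.61e-07). Cdkn2a, which encodes the inhibitor p16 and the p53 activator ARF, rose, with 26 and 12 counts in shNT and 66 and 60 counts in shGrhl3 (log2 fold change 1.58, SE 0.38, adjusted p = 0.00230). The falling inhibitors were Cdkn1c (log2 fold change -0.75), Cdkn2b (-0.51) and Cdkn1b (-0.26). The calls of Cdkn2b and Cdkn1b were lost with DESeq2 (adjusted p = 0.119 and 0.0896), with no filter and without shNT replicate 2, which left 3 falling genes in each case. Cdkn2b was also not called without shGrhl3 replicate 2, nor Cdkn1b without shNT replicate 1 or shGrhl3 replicate 1, when libraries were scaled by their totals alone (adjusted p = 0.0606) or with the replicate number as a block (0.0697).

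**Figure D3:**
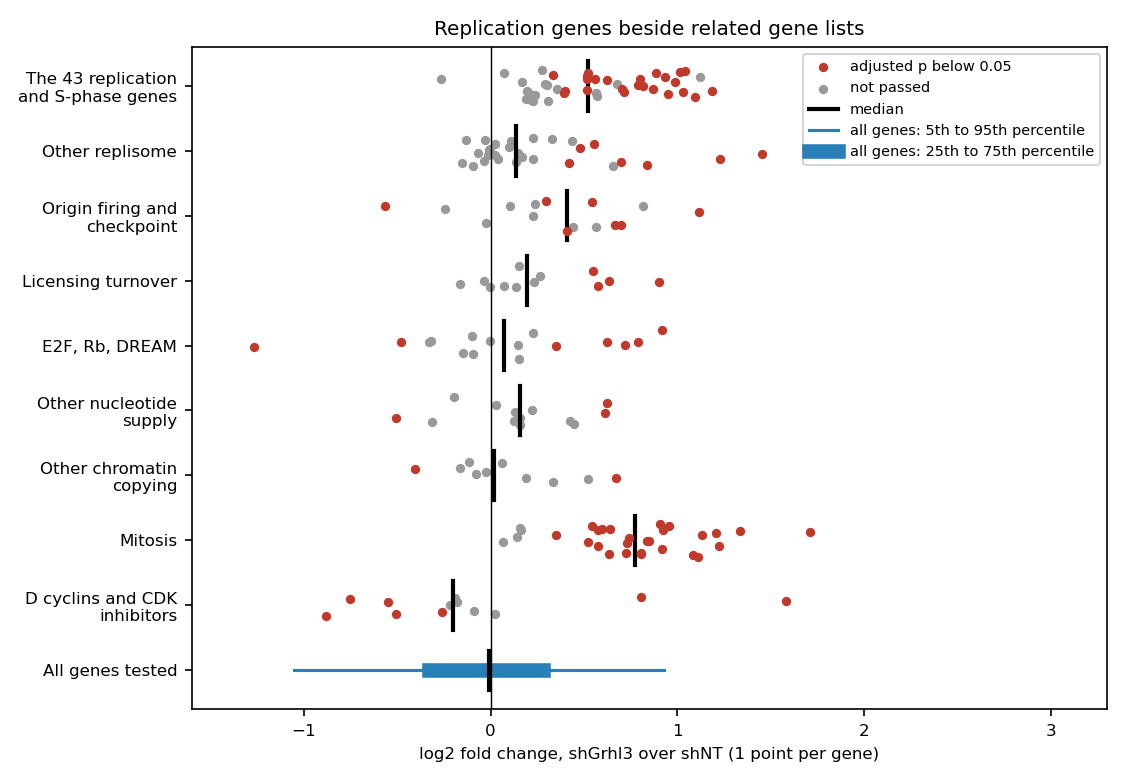
Log2 fold changes of the 43 replication and S-phase genes and of related gene lists, 1 point per tested gene, red for an adjusted p below 0.05, with the median as a black bar and the spread of all genes in blue. The 43 genes (median 0.52) and the mitotic genes (0.77) lie to the right of all genes tested (-0.01), and the D cyclins and CDK inhibitors lie on both sides of 0.

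Markers of cell types were read in the same libraries. Of all genes tested, 17.2% rose and 18.1% fell. The share of endothelial markers that fell (10%) was below this. Yet 9 of the 10 had negative log2 fold changes (median -0.44). In 6 of the 10 both shGrhl3 libraries lay below both shNT libraries, which held for 33.7% of all genes. Of the fibroblast markers, the share that rose (20%) was near that of all genes, and the share that fell (50%) was above it. The summed level of 16 leukocyte markers, 67.6% of it Lyz2, was 677 and 931 CPM in shNT and 156 and 125 CPM in shGrhl3, with 11 of 12 tested markers lower and Csf1r higher (log2 fold change 1.30). Over those 12 tested markers the median log2 fold change was -2.64. The values were -3.24 for Mpeg1, -3.23 for Ctss and -2.46 for Cd68. The complement genes C1qa, C1qb and C1qc, also on the list, were near 0 in all 4 libraries and were not tested. C1qa had 1 and 11 counts in shNT and 0 and 6 counts in shGrhl3. C1qb had 5 and 2 counts in shNT and 0 and 0 counts in shGrhl3. C1qc had 6 and 6 counts in shNT and 0 and 0 counts in shGrhl3. The sum of 10 endothelial markers was 66.2 and 61.4 CPM in shNT and 52.5 and 46.9 CPM in shGrhl3, with 1 lower (Tek), which was not called with DESeq2 or without shNT replicate 1 or shGrhl3 replicate 2. Epithelial markers summed to 12.7 and 15.6 CPM in shNT and 30.1 and 26.1 CPM in shGrhl3, with Krt7 the most abundant, Esrp1 at 0 in every library and 2 of 5 tested markers higher, and glial markers to 22.5 and 22.7 CPM in shNT and 32.9 and 35.9 CPM in shGrhl3, with 1 of 4 tested higher. Mural markers summed to 887 and 920.2 CPM in shNT and 1369 and 1357 CPM in shGrhl3, with 3 of 8 higher and 1 lower. The muscle filament gene Des made up 83.2% of that sum. The median log2 fold change of the 8 was -0.23, with 3 positive and 5 negative. Of the labelled identity, 12 cardiomyocyte markers summed to 4239 and 4247 CPM in shNT and 5014 and 4994 CPM in shGrhl3, 69.5% of it Tnnt2, with 6 higher and 1 lower. Tnnt2 did not pass (log2 fold change -0.003), so the sum hides the other markers. Over the 12, log2 fold changes ran from -0.62 to 3.61, with a median of 0.70. The 10 fibroblast markers summed to 11039 and 11271 CPM in shNT and 12032 and 12830 CPM in shGrhl3, with 2 higher and 5 lower. Col1a1 was the most abundant, with 43.6% of that sum. The median log2 fold change of the 10 was -0.24, with 3 positive and 7 negative. The ribosomal RNA gene Rn18s took 0.573% and 2.00% of counts in shNT and 0.0959% and 0.156% in shGrhl3. With rRNA-related genes left out, 26 replication genes rose and 0 fell, where 2752 of all 15322 genes tested rose. What part the other markers, the cells behind them or the RNA shares have in the higher replication genes was not tested.

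**Figure D4:**
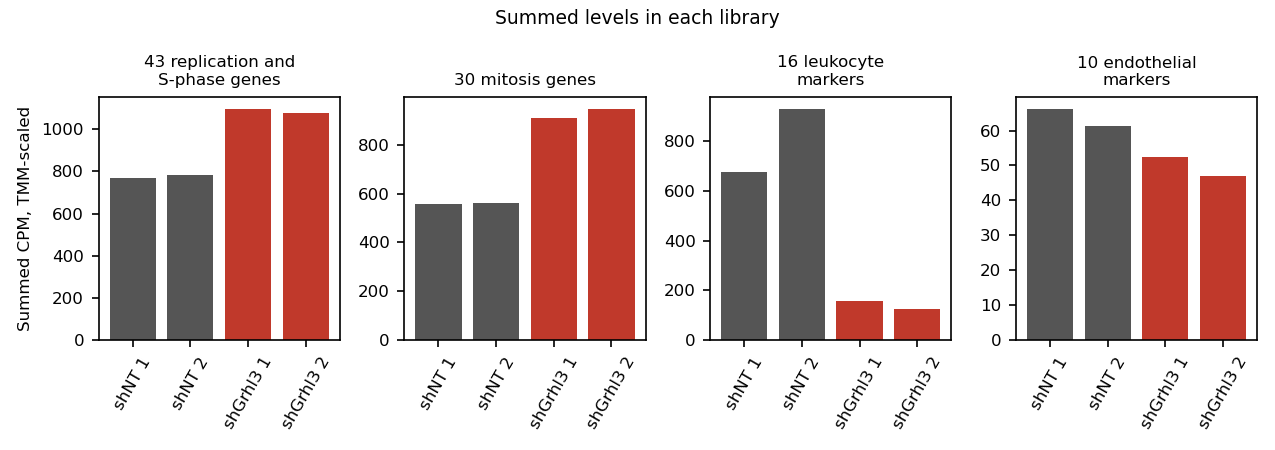
Summed CPM per library (bars from 0, 1 bar per library) of the 43 replication genes, 30 mitosis genes, 16 leukocyte markers and 10 endothelial markers. The replication and mitosis sums are higher in both shGrhl3 libraries (1097 and 1078 CPM for the 43 genes, against 770.0 and 783 CPM), and the leukocyte and endothelial sums are lower. The epithelial, glial, mural, cardiomyocyte and fibroblast sums, not drawn, are higher in both shGrhl3 libraries. Des makes up 83.2% of the mural sum and Col1a1 43.6% of the fibroblast sum. The median log2 fold changes of those lists are -0.23 and -0.24.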

How the data were processed

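RNA-seq libraries of 2 shNT and 2 shGrhl3 samples were used. The authors deposited raw counts per gene symbol in a single table. The submitters' processing notes name mm10 and, among the tools, HISAT2 2.0.1 and cutadapt 1.9.1, with no roles. The sources used here do not give the counting program, its annotation or its strand setting. The columns named shGrhl1 and shGrhl2 were read as replicates 1 and 2 of shGrhl3, the only target in the labels. Rows with no gene name (1438, at most 0.00872% of counts) were left out.

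Genes passing filterByExpr (minimum count 10) were tested with edgeR 4.0.16 in R 4.3.3, using TMM scaling, a robust quasi-likelihood fit with no covariate and Benjamini-Hochberg adjustment. Tests were two-sided, and the threshold was 0.05. The method was also run on simulated counts with known changes and a fixed spread, which checks the code and not its error rate in these libraries. SEs come from the F statistic. Alternatives included DESeq2 1.42.0 and limma 3.58.1.

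The 43 genes and all lists were chosen with earlier results of these data known. Full values are given for up to 3 called genes per role, the highest and lowest fold change of each role, and any gene moving against the majority. Of other lists, the 4 lowest p-values past the threshold are named, and all calls where a direction has 5 or fewer, except an item that is not reported here. Pcna, Csf1r, Mpeg1, Ctss, Cd68, Tek, the count ratios and the neighbouring genes were added after their values were seen.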

Additional observations from a re-analysis of the deposited data

How the results depend on the processing

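Over 16 alternatives, 19 to 27 of the 43 genes rose and 0 fell. Of the 24 risen genes, 19 passed in every alternative fitted to all 4 libraries and 16 in all 16 alternatives. Of the other 19 genes, 6 passed in at least 1 alternative. With 1 library left out, the median log2 fold change of the 43 genes ran from 0.43 (without shNT replicate 2) to 0.54 (without shGrhl3 replicate 1). The median of all genes tested was -0.01 in both of these fits. In those fits the lone library of a group is assumed to vary like the other group. Among the fits to all 4 libraries, the all-gene count moved as well. With DESeq2, 19 of the 43 rose, and 2093 of all 15324 genes tested. With libraries scaled by their totals alone, 27 of the 43 rose, and 2912 of all 15324. The number of falling genes among the D cyclins and CDK inhibitors, 5 with edgeR's test, was 3 with DESeq2 and 3 with no filter, and 3 to 5 with 1 library left out. Reversed signs were those of Mcm6 (-0.10 to 0.24 over the 4 fits that leave out a library, the lowest without shGrhl3 replicate 1) and Prkdc (-0.38 to 0.0789, the highest in that same fit), and the cause was not tested. Replicate numbers are shared between groups but pair nothing in the labels. The correlation across genes of replicate differences between the groups was -0.06, -0.17 among genes above 4 on the log2 CPM scale and -0.57 over the 43 genes. With the replicate number as a block, 23 of the 43 genes rose and 0 fell, losing only the E2f1 call. In that fit 2434 of all 15324 genes tested rose. With the crossed pairing as a block, added after seeing the data, 26 of the 43 rose, and 2882 of all genes rose and 2967 fell. Depth limits the low genes: SEs of the log2 fold change ran from 0.09 to 0.47, and for 4 genes that did not pass the 95% interval reached a doubling.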
